A study of Caenorhabditis elegans with 2 samples.

Results

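Divergent promoters are stretches of DNA between a pair of genes that are read in opposite directions, away from each other. They were examined here in ChIP-seq of the C. elegans protein ELT-4, a short GATA factor with a zinc finger. A region belonged to a divergent promoter when its summit lay in no annotated gene and within 1000 bp upstream of protein-coding start sites on both strands. It also had to lie more than 500 bp from any tRNA, snoRNA or piRNA gene. By this rule 305 of the 30000 regions listed for both replicates pooled were divergent promoter regions (1.02%), and they lay between 275 gene pairs. The deposited list holds peaks and background together, so a listed region is not in itself a binding site. The median q-value was 0.662 over the list and 0.695 over the 305. A q-value of at most 0.05 was reached by 1279 of the 30000 and by 25 of the 305. No signal value entered the rule.

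The chromatin came from whole late embryos of hermaphrodite strain OP111, 3 h after synchronization by bleaching. The strain carries the allele unc-119(ed3) III and the integrated transgene wgIs111, from which ELT-4 is made with GFP and FLAG at its C-terminus, in addition to the native elt-4. Per the labels, the tag was precipitated with an antibody to GFP from sonicated chromatin, although a separate label field gives elt-4 as the antibody. There were 2 biological replicates of this 1 group and no other group, so no comparison between conditions was possible. Chromatin of all embryonic cells was mixed, so the cell type behind a signal was not resolved. Sequencing depth is unknown.

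GATA factors are named for the core of the DNA word that their zinc finger recognises. In C. elegans a series of them specifies the endoderm and then drives the genes of the intestine, where ELT-2 is the main factor, and elt-4 is a short gene next to elt-2. In a divergent promoter a bound factor lies upstream of both genes, so position alone does not assign it to either of them. Many C. elegans transcripts are trans-spliced, a step that replaces the original 5′ end of the RNA, so an annotated start can lie downstream of the true start of transcription.

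The authors' list of peaks that passed an irreproducible discovery rate (IDR) filter held 342 peaks, which were the 342 pooled regions of highest signal. The divergent promoter regions included 12 of them. Signal is the value that the authors' peak caller gave each region, on a scale that is not stated. The summit sequences of 7 of these peaks, on chromosomes II, III and IV, are printed here so that the words they hold and lack can be read directly. Each is the + strand of WBcel235 (ce11, RefSeq sequence) within 100 bp of the summit, limited to bases outside annotated genes. Capitals mark GATA-type words on either strand, which are TGATAA and its variants with A first (AGATAA), with G last (TGATAG) or with both changes (AGATAG). They also mark GCGCG or its complement CGCGC.
mlcd-1/idhg-1: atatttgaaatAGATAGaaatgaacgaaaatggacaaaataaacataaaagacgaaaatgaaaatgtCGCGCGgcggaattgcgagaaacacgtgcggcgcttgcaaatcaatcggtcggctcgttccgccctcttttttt
ecps-1/atx-2: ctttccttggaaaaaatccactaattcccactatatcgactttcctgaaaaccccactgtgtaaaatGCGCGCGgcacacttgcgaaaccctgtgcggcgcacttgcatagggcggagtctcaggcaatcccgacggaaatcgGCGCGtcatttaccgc
prp-19/K10D2.5: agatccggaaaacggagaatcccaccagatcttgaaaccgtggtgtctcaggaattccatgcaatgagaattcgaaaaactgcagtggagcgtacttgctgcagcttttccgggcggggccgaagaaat
Y41D4A.6/Y41D4A.4: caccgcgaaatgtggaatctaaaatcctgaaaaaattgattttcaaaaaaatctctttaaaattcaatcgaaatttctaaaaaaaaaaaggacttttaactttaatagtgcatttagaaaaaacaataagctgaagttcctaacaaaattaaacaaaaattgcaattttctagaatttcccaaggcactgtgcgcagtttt
B0495.9/sre-1: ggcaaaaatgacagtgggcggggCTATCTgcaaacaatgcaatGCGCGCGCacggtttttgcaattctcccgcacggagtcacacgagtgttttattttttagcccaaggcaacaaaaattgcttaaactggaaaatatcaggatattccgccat
ears-2/uncp-18: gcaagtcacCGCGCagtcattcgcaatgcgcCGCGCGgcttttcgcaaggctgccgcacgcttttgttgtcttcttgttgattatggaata
nrde-2/atad-3: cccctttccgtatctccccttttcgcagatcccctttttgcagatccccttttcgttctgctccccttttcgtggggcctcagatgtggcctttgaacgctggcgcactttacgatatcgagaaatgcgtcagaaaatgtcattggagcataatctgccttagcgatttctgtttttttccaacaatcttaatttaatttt
They lie, in this order, at chrIII:4568656-4568796, chrIII:10461230-10461388, chrIII:5172591-5172719, chrIV:1745560-1745760, chrII:7708711-7708865, chrIV:390469-390559 and chrII:10248458-10248658. GATA-type words occur in 2 of these 7 sequences, upstream of idhg-1 and of B0495.9, and GCGCG in 4.

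The divergent promoter region of highest signal, 174, was at chrIII:4568681-4568806. It lay 41 bp upstream of idhg-1, a subunit of mitochondrial isocitrate dehydrogenase in the citric acid cycle, and 626 bp upstream of mlcd-1, which encodes malonyl-CoA decarboxylase. Its signal was 81.6 in the list of replicate 1 and 86.7 in that of replicate 2, where it ranked 9 and 10 of all regions. Its signal and its rank were thus close in both lists (84.1 ± 3.66, mean ± SD, n = 2). The next, with a pooled signal of 141, was at chrIII:10461095-10461564, 59 bp upstream of atx-2 (ataxin-2, an RNA-binding protein) and 779 bp upstream of ecps-1, which encodes a homologue of the proteasome-associated protein Ecm29. Its replicate signals were 75.8 and 66.8. Here replicate 1 was the higher (71.3 ± 6.37).

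Other IDR peaks of chromosomes III and IV were also seen in both lists. The region at chrIII:5172456-5172925 lay 29 bp upstream of K10D2.5, 646 bp upstream of prp-19, a core factor of the spliceosome, and 748 bp upstream of emb-1, a subunit of the anaphase-promoting complex. Its pooled signal was 111.9, from 58.6 in replicate 1 and 48.8 in replicate 2 (53.7 ± 6.96). It was the only IDR peak among the divergent promoter regions with 3 genes in reach. The region at chrIV:1745425-1745894 lay 157 bp upstream of Y41D4A.6, annotated as subunit A of the mitochondrial amidotransferase that makes glutaminyl-tRNA, and 341 bp upstream of Y41D4A.4, annotated as a transmembrane 9 superfamily member. Its replicate signals were 54.9 and 57.5 (56.2 ± 1.81), the smallest SD among the 12. An overlapping region of the same pair, with a pooled signal of 76.3, matched the same 2 replicate regions, so its replicate values are not further evidence. The region at chrIV:390243-390712 lay between the closest starts of the 12, 10 bp upstream of ears-2, the mitochondrial glutamyl-tRNA synthetase, and 82 bp upstream of uncp-18, annotated as a syntaxin-binding protein. Its signals were 38.9 and 55.5 (47.2 ± 11.8).

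Of the 5 IDR peaks on chromosome I, 2 differed widely in signal between the replicates. The region at chrI:5807177-5807646 lay 297 bp upstream of lin-35, the retinoblastoma homologue of the worm, and 121 bp upstream of vps-51, a subunit of the GARP tethering complex. Its signal was 29.0 in replicate 1 and 78.2 in replicate 2, which placed it at rank 2157 in the former and 16 in the latter. The mean of 53.6 carried an SD of 34.8, so its place among the strongest regions rested on replicate 2. The region at chrI:1415769-1416238, between Y92H12BR.2 (197 bp) and Y92H12BR.3 (578 bp), had signals of 43.8 and 85.3 (64.5 ± 29.4). Y92H12BR.2 is annotated with a domain of the chromatin target of PRMT1. Replicate 2 was again the higher. The remaining 3 on this chromosome lay between Y71G12B.30 and chaf-2 (pooled signal 97.02), nsf-1 and adr-1 (95.8), and let-630 and hcp-6 (81.8). chaf-2 encodes a subunit of the histone chaperone CAF-1, nsf-1 the vesicle-fusing ATPase, adr-1 a regulator of RNA editing, let-630 a protein of the mitochondrial ribosome, and hcp-6 a subunit of condensin II. Their replicate signals were 42.8 and 58.8 at chaf-2, 46.0 and 50.5 at adr-1, and 29.7 and 43.6 at hcp-6. All 3 were higher in the list of replicate 2.

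The 2 on chromosome II lay at chrII:7708530-7708999, between B0495.9 (55 bp) and the chemoreceptor gene sre-1 (939 bp), and at chrII:10248323-10248792, between nrde-2 (920 bp), a nuclear RNA interference factor, and atad-3 (433 bp), a mitochondrial ATPase. Their signals were 36.9 and 53.7 at the former and 30.3 and 51.5 at the latter. In the window of the latter 75.3% of the 36-mers were unique in the genome, and in the other 11 windows all were. Signals in the 2 lists were not scaled to each other, and the replicate 2 list had the higher median signal over all its regions (18.3, against 16.37 in replicate 1). By rank within its own list, 8 of the 12 stood higher in replicate 2. Of the 12, 11 were among the 342 strongest regions of replicate 2 and 7 among those of replicate 1, and these 7 were in both sets. The same counts over all 342 IDR peaks are not given here. A lean to replicate 2 can therefore not be called particular to divergent promoters.

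**Figure D1:**
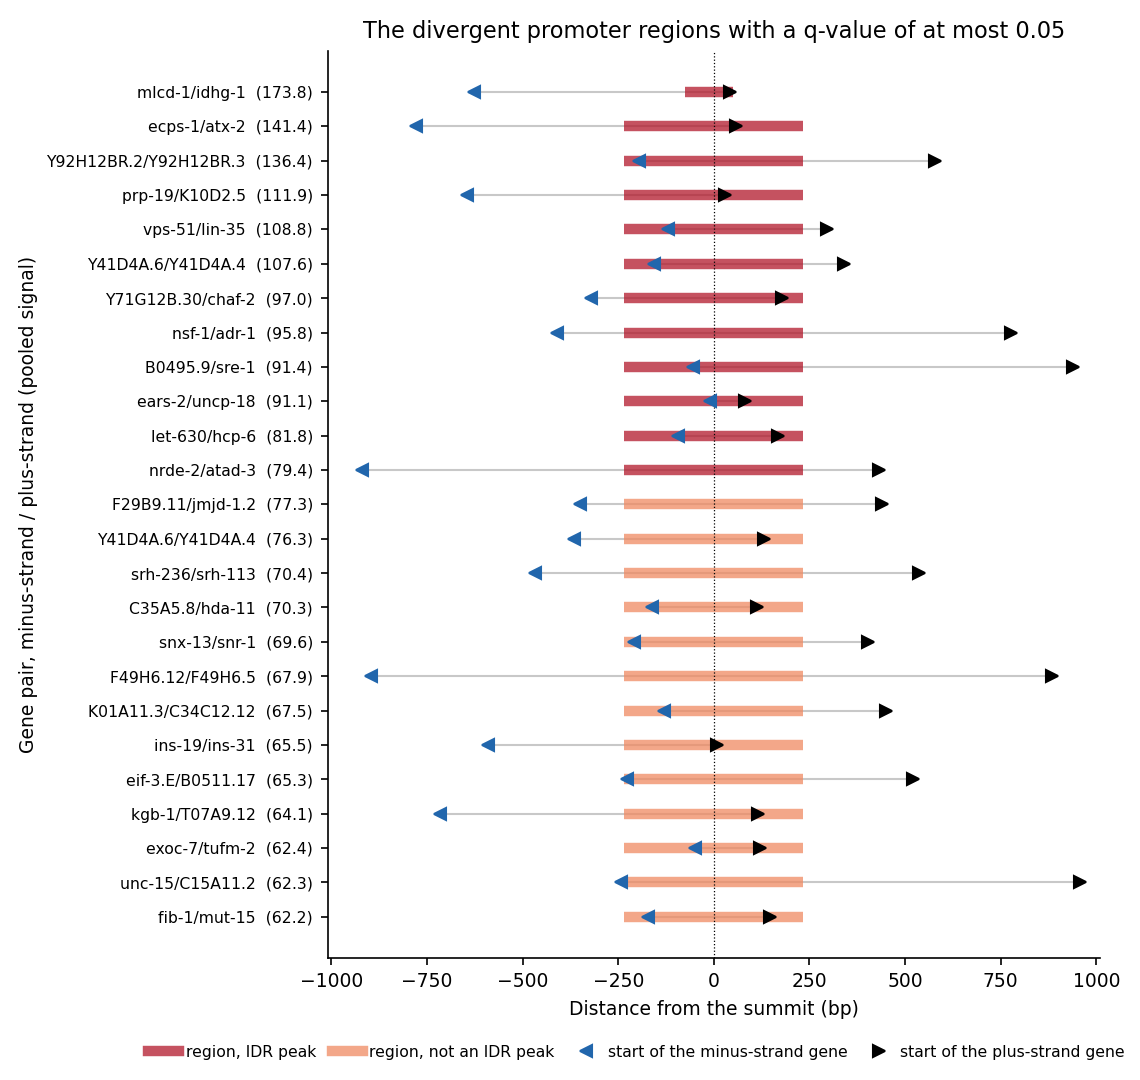
Position of the 25 divergent promoter regions with a q-value of at most 0.05, in order of pooled signal (in parentheses, authors' unit). The horizontal axis is the distance from the summit in bp, bars are regions, and triangles mark the nearest annotated start on each strand. In 20 of the 25 the nearest start was within 250 bp of the summit.

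Outside the IDR list, 13 more divergent promoter regions passed a q-value of 0.05 in the pooled list. The strongest of them lay between F29B9.11, annotated as a cytochrome c oxidase subunit, and jmjd-1.2, a histone demethylase gene. Its pooled signal was 77.3, from 20.4 in replicate 1 and 61.2 in replicate 2, so it stood high in replicate 2 alone. The region between snx-13 and snr-1, which encodes a core protein of the spliceosomal snRNPs, was like it, with 16.8 and 49.03. The region between the chemoreceptor genes srh-236 and srh-113 had nearly the same signal in both lists, 35.8 and 35.6 (pooled 70.4). That between C35A5.8, annotated as exportin-7, and the histone deacetylase gene hda-11 was the higher in replicate 1, with 41.3 against 28.3. The other 8, apart from the overlapping Y41D4A region, had pooled signals from 62.2, between fib-1 (fibrillarin) and mut-15, to 67.9, between F49H6.12 and F49H6.5. These regions outside the IDR list were chosen for mention after their values were seen, apart from those of the gene lists below.

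Most divergent promoter regions were weak. Their pooled signal had a median of 29.2, quartiles of 24.7 and 40.1 and a range of 21.3 to 174, against a median of 30.5 and quartiles of 25.1 and 39.3 over all pooled regions. The median divergent promoter region thus stood no higher than the median region of the list. In both replicate lists 156 of the 305 had a match of at least 1 bp (51.1%, exact 95% interval 45.4 to 56.9), against 55.9% of all pooled regions. Other intergenic regions were close to the 305. The share was 52.9% within 1000 bp upstream of starts on 1 strand only and 51.5% with no start within that distance. Of the 305, a match in replicate 1 alone was found for 68, in replicate 2 alone for 65 and in neither for 16. All 25 regions that passed a q-value of 0.05 were matched in both. The same share over all pooled regions at that q-value is not given, so this cannot be called particular to divergent promoters. The median pooled signal was 39.2 where both lists had a match, 25.5 and 25.9 where only replicate 1 or only replicate 2 did, and 22.6 where neither did. The matched regions were therefore the stronger ones and do not stand for all 305.

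**Figure D2:**
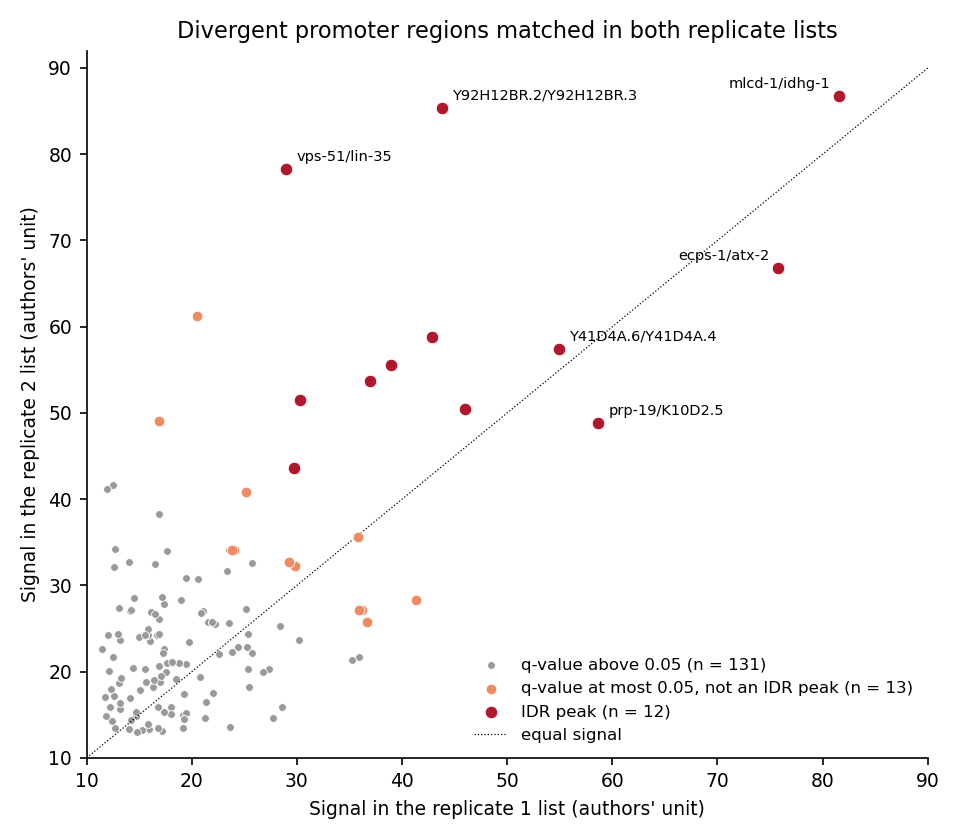
Signal in the replicate 1 list (horizontal) against the replicate 2 list (vertical), both in the authors' unit, for the 156 divergent promoter regions matched in both lists. Points are regions, coloured by call, and the dotted line marks equal signal. The 12 IDR peaks run from 29.0 to 81.6 in replicate 1 and from 43.6 to 86.7 in replicate 2.

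Across those 156 regions Spearman's rho between the signals of the replicate lists was 0.392, and across the 16769 pooled regions matched in both lists it was 0.312. Regions of 1 library share its depth and preparation, so these are descriptions. Some replicate regions were counted more than once. Of the 224 divergent promoter regions matched in replicate 1, 48 shared their match with another, as did 40 of the 221 matched in replicate 2. The median signal of the matches was 18.1 in replicate 1 and 22.4 in replicate 2. Among the strongest 342 of both replicate lists were 9 divergent promoter regions (2.95%), against 0.51% of all pooled regions. Of these, 7 were the IDR peaks above and the other 2 were overlapping regions of the Y41D4A and Y92H12BR pairs that shared their matches.

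A larger share of divergent promoter regions than of regions upstream of 1 strand were strong calls. Of the 305, 12 were IDR peaks (3.93%, exact Clopper-Pearson 95% interval 2.05 to 6.77), against 1.14% of all pooled regions. Of the 2402 intergenic regions within 1000 bp upstream of starts on 1 strand only, 23 were (0.958%, 0.608 to 1.43). Of the 4309 intergenic regions with no start within that distance, 25 were (0.580%, 0.376 to 0.855). These intervals cover the counting of regions only, and neighbouring regions of the same 2 libraries are not independent, so no test was made. At a q-value of at most 0.05 the counts were 25 of 305 (8.20%, 5.37 to 11.9), against 4.26% of all pooled regions. The share was 3.96% upstream of 1 strand (95 regions, 3.21 to 4.81) and 2.65% far from starts. The intervals of divergent promoters and of regions upstream of 1 strand did not overlap at either threshold.

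**Figure D3:**
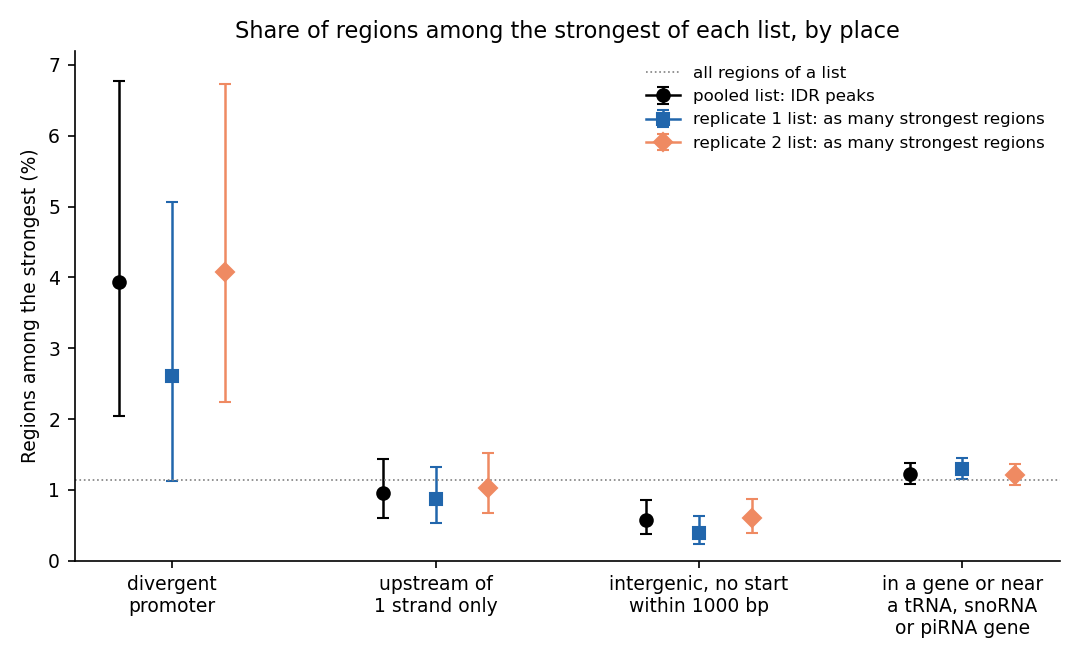
Share of regions (%) among the IDR peaks of the pooled list, and among the 342 strongest regions of each replicate list, by place in the genome. Points are shares, bars exact 95% intervals for the counting of regions, and the dotted line the share over all regions (1.14%). In the pooled list divergent promoters stand at 3.93%, and in replicates 1 and 2 at 2.61% and 4.07%.

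The same order was seen in each replicate list by its own summits. In replicate 1, 8 of 307 divergent promoter regions were among its 342 strongest (2.61%, 1.13 to 5.07), against 21 of 2424 upstream of 1 strand (0.866%, 0.537 to 1.32). In replicate 2 the counts were 14 of 344 (4.07%, 2.24 to 6.73) and 25 of 2432 (1.03%, 0.666 to 1.51). The intervals of the 2 classes overlapped in replicate 1 and not in replicate 2. At a q-value of at most 0.05 the shares in replicate 1 were 5.54% in divergent promoters and 4.25% upstream of 1 strand. Over all regions of that list the share was 4.87%, and in genes or near small RNA genes it was 5.24%. The share of divergent promoters in replicate 1 was thus close to both of these. In replicate 2 the shares were 5.81% in divergent promoters and 2.43% upstream of 1 strand, against 3.01% over all regions.

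The density of regions per length of sequence was close to that upstream of 1 strand. The bases that meet the rule come to 1213382 bp, which is 1.21% of the genome, and they held 251.4 regions per Mb, against 244 per Mb upstream of 1 strand, 219 far from starts and 299 over the whole genome. IDR peaks stood at 9.89 per Mb in divergent promoters, 2.33 upstream of 1 strand, 1.27 far from starts and 3.41 over the whole genome. The density of regions was thus above that of the other intergenic classes and below that of the genome, and the density of IDR peaks was above all of these. Chromosome I held 61 of the 305 regions and 5 of the 12 IDR peaks, and chromosome III 39 and 3. Chromosomes II and IV had 2 IDR peaks each. Chromosome V had 85 regions and the X chromosome 21, and neither had an IDR peak among them. At a q-value of at most 0.05 there were 4 on V and 0 on X. The IDR peaks of all classes are not counted by chromosome here, so this cannot be called particular to divergent promoters. Per Mb of sequence that meets the rule, the number of regions was 243 on V and 261 on X, within the range from 220 (IV) to 300.2 (I) over the chromosomes.

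Distances to the annotated starts were then compared. Over all 305 the nearest start was a median of 204 bp from the summit (1 to 976 bp), and 188 summits lay within 250 bp (61.6%). Of the bases that meet the rule, 57.0% lie as near, which is close to the share of the regions. Among the 12 IDR peaks the median was 108 bp (10 to 433 bp), and 10 lay within 250 bp (83.3%, 51.6 to 97.9), an interval that holds the share of all 305. The paired starts were a median of 803 bp apart over all regions and 671 bp for the IDR peaks. The gene on the minus strand was the nearer in 145 of the 305 (47.5%, 41.8 to 53.3). Across the 305, signal followed these distances little (Spearman's rho -0.0709 with the nearest start and -0.112 with the distance between starts).

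The shares of IDR peaks were then set beside those of regions upstream of 1 strand by distance. Within 250 bp of a start, 10 of 188 divergent promoter regions were IDR peaks (5.32%, 2.58 to 9.56), against 6 of 912 upstream of 1 strand (0.658%, 0.242 to 1.43). Beyond 250 and up to 500 bp they were 2 of 85 (2.35%, 0.286 to 8.24) and 4 of 608 (0.658%, 0.180 to 1.68). Beyond 500 and up to 1000 bp they were 0 of 32, which allows a share of up to 10.9%, and 13 of 882 (1.47%). The share was higher in divergent promoters in the near and middle zones. The intervals were apart only in the near zone, and whether the difference varies with distance was not tested.

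**Figure D4:**
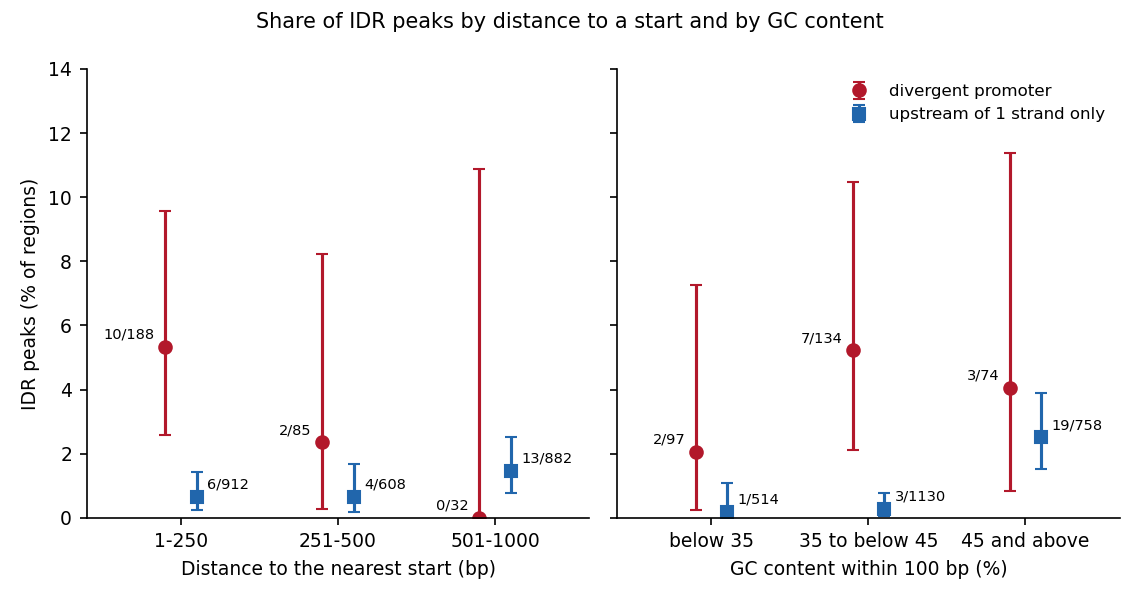
Share of IDR peaks (%) among divergent promoter regions and among regions upstream of 1 strand only, by distance of the summit to the nearest start (left, bp) and by GC content within 100 bp (right, %). Points carry the counts, and bars are exact 95% intervals for the counting of regions. The intervals are apart within 250 bp of a start and from 35% to below 45% GC.

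The IDR peaks of divergent promoters were poorer in GC than the other IDR peaks. GC content within 100 bp of the summit averaged 40.3% ± 7.08 (SD over 12 peaks, range 27.4 to 54.2) in the former and 53.8% ± 6.64 (SD over 330 peaks) in the latter. Below 46% GC lay 11 of the 12, and 36 of the other 330. IDR peaks upstream of 1 strand averaged 51.6% ± 8.55 (SD over 23 peaks). Over all 305 divergent promoter regions GC content was 39.6% ± 7.64, and over all pooled regions 43.2% ± 7.36, so within divergent promoters the IDR peaks had nearly the GC content of the rest. The sequence at the centres of all 2665 stretches that meet the rule was poorer still, at 33.9%. Signal rose with GC content across the 305 regions (Spearman's rho 0.276) as across all pooled regions (0.383).

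**Figure D5:**
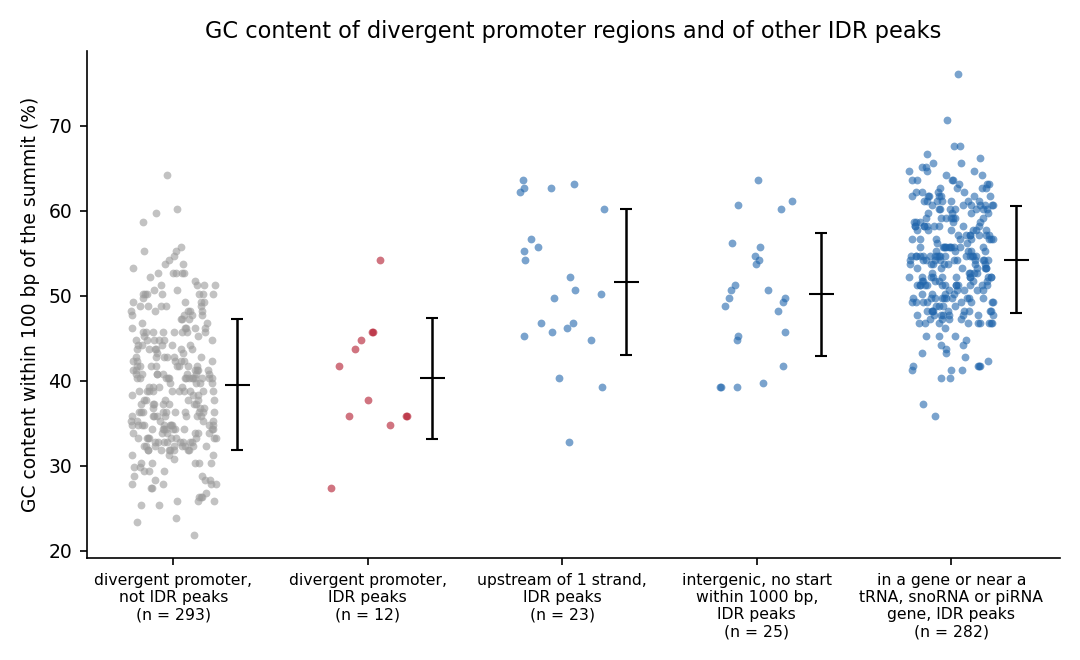
GC content (%) within 100 bp of the summit for divergent promoter regions and for IDR peaks of each place in the genome. Points are regions, and the bars beside them give the mean and the SD over regions. The 12 IDR peaks of divergent promoters average 40.3%, and those in genes or near small RNA genes 54.3%.

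In each of 3 ranges of GC content the share of IDR peaks was higher in divergent promoters than upstream of 1 strand. From 35% to below 45% GC, 7 of 134 divergent promoter regions were IDR peaks (5.22%, 2.13 to 10.5), against 3 of 1130 upstream of 1 strand (0.265%, 0.0548 to 0.774). Below 35% the counts were 2 of 97 (2.06%, 0.251 to 7.25) and 1 of 514 (0.195%, 0.00493 to 1.08). At 45% and above they were 3 of 74 (4.05%, 0.844 to 11.4) and 19 of 758 (2.51%, 1.52 to 3.89). The intervals overlapped in the lower and upper ranges, and a change of the difference with GC content was not tested. In divergent promoters 11 of the 12 IDR peaks had at least 95% unique 36-mers around the summit, as had 15 of 23 upstream of 1 strand. Over all other IDR peaks 278 of 330 had. With only regions of at least 95% unique 36-mers kept, 11 of 273 divergent promoter regions were IDR peaks (4.03%). Upstream of 1 strand the share was then 0.695%. Whether reads in repeated sequence bear on these shares was not tested.

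GATA-type words stood near the share over all pooled regions. They stood below the share at the centres of the stretches that meet the rule, which were poorer in GC. TGATAA lay within 100 bp of the summit, on either strand, in 45 of the 305 regions (14.8%, 10.97 to 19.2). The share was 12.5% over all pooled regions, 13.7% upstream of 1 strand and 19.8% at the centres of the 2665 stretches. With starts sought within 500 bp, 11 of 115 divergent promoter regions had it (9.57%), against 14.7% upstream of 1 strand, so the order of the classes turned. Any of the 4 GATA-type words was found in 86 (28.2%), against 29.3% of all pooled regions and 38.0% of the centres. The centres averaged 33.9% GC and the 305 regions 39.6%. These words hold mostly A and T, so the shares were not matched for base composition. Among the 12 IDR peaks 1 had TGATAA, the peak near idhg-1, whose TGATAA lies past the start of idhg-1 and so outside the stretch printed above. Outside the IDR list the strongest regions with TGATAA lay between eif-3.E and B0511.17 (pooled signal 65.3) and between unc-15 and C15A11.2 (62.3), whose sequences are not printed. The next 3 lay between snrp-40.1 and F08G12.3, between C34F6.7 and idh-2, and between ctns-1 and cdc-48.2, and are shown for contrast in the same way.
snrp-40.1/F08G12.3: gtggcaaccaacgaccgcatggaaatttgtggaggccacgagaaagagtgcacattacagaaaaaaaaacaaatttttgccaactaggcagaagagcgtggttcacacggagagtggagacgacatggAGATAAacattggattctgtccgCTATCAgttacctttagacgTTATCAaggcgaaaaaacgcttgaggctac
C34F6.7/idh-2: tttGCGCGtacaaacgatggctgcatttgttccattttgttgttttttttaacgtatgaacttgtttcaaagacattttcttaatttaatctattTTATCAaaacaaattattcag
ctns-1/cdc-48.2: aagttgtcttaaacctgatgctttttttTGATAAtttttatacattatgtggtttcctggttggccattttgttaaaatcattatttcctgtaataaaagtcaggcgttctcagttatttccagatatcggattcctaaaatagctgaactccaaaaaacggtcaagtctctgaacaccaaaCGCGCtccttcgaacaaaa
They lie at chrX:11299880-11300080, chrX:11215884-11215999 and chrII:8137488-8137688. snrp-40.1 encodes a protein of the U5 snRNP, idh-2 an isocitrate dehydrogenase, ctns-1 the cystinosin homologue and cdc-48.2 an AAA ATPase. In the stretch near snrp-40.1, 3 GATA-type words stand within 100 bp of the summit, all on its F08G12.3 side. Its pooled signal was 61.3 (25.7 in replicate 1 and 32.6 in replicate 2), with a q-value of 0.0561. The region near idh-2 had a pooled signal of 56.0 (16.9 and 38.3), and that near ctns-1 had 49.9 (23.5 and 25.7). All 3 were chosen from outside the IDR list. That list holds the pooled regions of highest signal, so their lower pooled signal was fixed by this choice. In replicate 2, which is part of the pooled data, they also stood below the 12 IDR peaks of divergent promoters.

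GCGCG, a word searched for after the sequences had been read, was found within 100 bp of the summit in 87 of the 305 regions (28.5%, 23.5 to 33.9). It was present in 13.2% of all pooled regions, in 19.03% of those upstream of 1 strand and in 14.9% of the centres of the stretches. The centres are poorer in GC than the regions, so this share too was not matched for base composition. Among the 12 IDR peaks 6 had it (50%, 21.1 to 78.9), and among the other 293 divergent promoter regions 81 (27.6%). Among the 330 other IDR peaks, which are richer in GC, 84 did (25.5%). Of the 2080 hexamers counted with their complements, AGAAAT differed most between the 12 IDR peaks and the other divergent promoter regions. It was in 9 of the 12 (75%) and in 26.96% of the others, and in 33.3% of the centres. TTGCAA was in 6 of the 12 and in 13.99% of the others. These hexamers were picked as extremes over all of them and on 12 sequences, so they are a description with no test.

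Single pairs rarely held more than 1 region. Of the 275 pairs, 245 had 1 and 30 had 2, and no pair had more. The 3 pairs with 2 regions and the highest signal were ecps-1/atx-2, Y92H12BR.2/Y92H12BR.3 and vps-51/lin-35. In each the other region was weak, with pooled signals of 34.1, 27.6 and 29.6. A start of 1 more gene, 3 in all, was in reach of 12 regions. Genes of a common symbol family, such as ins-19 and ins-31 of the insulin-like peptides, flanked 17 regions on both sides.

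The 305 regions lay upstream of 562 protein-coding genes, which is 10.998% of the 5110 genes with any sequence that meets the rule, out of 19973 in all. Of these 5110, 49 genes lay beside a region that passed a q-value of 0.05 and 25 beside an IDR peak. Lists of genes by tissue and function were read against this share. A region of any signal counts here, and most of the 305 did not pass a q-value of 0.05. Of the 7 endoderm GATA factors 1 has sequence that meets the rule, and it had no region, and of the 5 other GATA factors found in the annotation none has such sequence. Among 38 genes of intestine structure and function 8 were eligible and 1 had a region. This was fat-6, a stearoyl-CoA desaturase gene, with a pooled signal of 26.9, a q-value of 0.757 and a match in replicate 1 alone. Of the transcription factors with roles in the intestine 3 were eligible, and none had a region.

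Markers of other tissues gave few regions as well. Of 3 eligible muscle genes 1 had a region, unc-15, which encodes paramyosin, with a pooled signal of 62.3 and replicate signals of 29.2 and 32.8. Its q-value was 0.0482 and its window held TGATAA. Of 12 eligible germline genes mex-1, an RNA-binding protein gene, had a region (pooled signal 49.9, q-value 0.176). The eligible pharynx, epidermis and neuron genes (1, 2 and 2) and the 4 eligible hsp-16 genes had none. Most tissue lists thus had too few eligible genes to read a share from.

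Lists of genes used in most cells had more eligible members. Of 19 eligible chromatin and cell cycle genes 4 had a region, led by lin-35 (109), then bub-1, a spindle checkpoint kinase gene (44.7), and cyb-1, a cyclin B gene (36.8). Among these only the region of lin-35 passed a q-value of 0.05. Of 33 eligible chaperone and proteasome genes 4 had a region, among them rpn-9 (54.3), hsp-60 (24.0) and rpn-7 (21.5). Of 46 eligible ribosomal protein genes 4 did, among them rps-23 (47.2), rpl-11.1 (39.8) and rpl-25.2 (23.01). Of 43 eligible histone genes 3 did, the pair his-67 and his-68 (46.3) and his-42 (24.5). No region of the chaperone, proteasome, ribosomal protein or histone genes passed a q-value of 0.05. None of the 9 eligible V-ATPase genes had a region. Histone genes occur in near-identical copies, among which reads cannot be placed with certainty.

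The large families named from their symbols stayed near the share over all eligible genes or below it. A region lay upstream of 11 of 96 eligible F-box genes, led by fbxa-153 (55.3), fbxa-108 (46.8) and fbxc-44 (46.5). It did so for 6 of 75 C-type lectin genes, led by clec-260 (37.4), clec-101 (36.3) and clec-206 (29.3). Only 1 gene had a region among 43 eligible nuclear hormone receptors (nhr-213), 36 collagens (dmsr-15 faces col-141) and 10 homeobox genes (ceh-40), and no gene did among 16 cytochrome P450 genes. No region of these families passed a q-value of 0.05.

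The distance limit of the rule set its edge. Just inside it, with the farther start in the last 100 bp before the limit, were 29 divergent promoter regions, with a median signal of 27.8 (21.5 to 91.4), of which 2 were IDR peaks. Just outside, with the farther start up to 100 bp beyond the limit, were 43 regions with a median of 27.7 (21.5 to 346), of which 1 was an IDR peak.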

How the data were processed

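ChIP-seq of GFP-tagged ELT-4 was deposited as region lists on ce11: 30000 regions for each of 2 biological replicates, 30000 for both pooled, and 342 IDR peaks. Per the deposited notes, a control file was used in the calling. Not given in the sources used here are the aligner, the peak caller, both versions and the IDR cut-off. The signal column holds the deposited value of the authors' peak caller, and the other column used is the −log10 of a q-value as deposited. The p-value column, set to a constant, the ce10 lists and the control library were not used or not analysed here. Signals were not scaled between lists. No read counts were used, so depth is unknown.

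Summits were placed on the Ensembl annotation (release 115, WBcel235) with the start sites of all protein-coding transcripts, on chromosomes I to V and X. Replicate regions were matched by at least 1 bp of overlap, taking the strongest. Words and GC content were read in 201 bp around the summit, and a 36-mer was unique if it occurred once in the genome. Shares carry exact Clopper-Pearson 95% intervals. Placement and matching were checked on simulated data in 17 checks, all passed. Python 3.11.15, pandas 2.3.3, numpy 2.4.6 and scipy 1.17.1 were used.

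The regions and the 21 gene lists were chosen with earlier results of these data known. The named genes are the pairs of the 10 strongest divergent promoter regions, all IDR peaks among them, the 3 pairs with most regions and at most 3 genes per list, by signal. Alternatives changed the upstream window, the gene and small RNA filters, the overlap, the q-value, the summit window and the word, and left out each replicate.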

Additional observations from a re-analysis of the deposited data

How the results depend on the processing

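Of the 10 alternatives tried, those that kept the pooled list left the share of divergent promoter regions among the IDR peaks within its interval. It ran from 2.17% with 2000 bp upstream to 4.36% with at most 1 region per gene pair. Where regions upstream of 1 strand were counted too, their share ran from 0.695% to 1.12%. The alternatives that left out a replicate counted the 342 strongest regions of the remaining list in place of IDR peaks. Among these were 2.61% of the divergent promoter regions of replicate 1 and 4.07% of those of replicate 2. Those values rest on other regions and another call, so they do not show that the IDR share was stable. The number of regions was 115 with 500 bp upstream and 644 with 2000 bp. With 500 bp the median signal was 30.5, the share matched in both lists 59.1% and the share with TGATAA 9.57%, below the 14.7% of regions upstream of 1 strand. With only 1 replicate list the median signal was 16.36 to 17.98, on that list's own scale, and the share matched 72.5% to 73.4%, since only 1 list had to match. The share matched in both was 40.3% when at least 50% of the pooled region had to overlap and 29.8% with summits within 100 bp. At a q-value of at most 0.01, 3.61% of the divergent promoter regions passed, against 0.833% of regions upstream of 1 strand. The share over all pooled regions at that threshold is not given. TGATAA was found in 5.57% within 50 bp of the summit and 21.97% within 150 bp, and any GATA-type word in 28.2% within 100 bp. Mean GC content was 40.7% within 50 bp and 38.5% within 150 bp. Wider or narrower windows and rules change these values by construction. No paired analysis was possible because there is 1 group.

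With 12 IDR peaks among 305 regions, intervals are wide, and 5 of the 12 were not among the 342 strongest of replicate 1. A control file was used in the authors' calling, but the control library and the sequencing depth were not examined here. Deeply covered or open chromatin and binding of the tagged protein can therefore not be told apart by these values. Annotated starts stand in for true starts.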
